A study of Homo sapiens with 6 samples.

Results

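The nuclear genes of respiratory complex I were taken from the deposited table by symbol: 38 rows of the NDUFA, NDUFB, NDUFC, NDUFS and NDUFV series together with NDUFAB1, here called structural subunits, and 8 rows of the NDUFAF series of assembly factors. These are 46 of 32322 gene rows, with pseudogenes left out, and all 46 passed the filter on low values among the 18278 genes tested. The libraries came from human cells titled MDA-MB-231, a line of triple-negative breast cancer, labelled wild type. Of the 6 libraries, 3 were labelled DMSO, with no time of their own, and 3 were labelled compound 28, given at 500 nM for 4 h; the series title describes this compound as a degrader of CDK9, the kinase that releases paused RNA polymerase II. All titles give 1 name, but the other labels number the line upwards, library by library, ending at MDA-MB-236. Whether replicates came from separate cultures is not stated, so p-values cover the spread between these libraries, which may be technical.

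Complex I, NADH:ubiquinone oxidoreductase, is the entry point of electrons from NADH into the mitochondrial respiratory chain. An N module binds NADH, a Q module passes electrons to ubiquinone, and a membrane arm pumps protons; its central hydrophobic subunits, the MT-ND proteins, are encoded in mitochondrial DNA and the rest in the nucleus. The modules are built separately and joined with the help of assembly factors, which are not part of the finished enzyme.

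Reads assigned to genes ranged from 37186728 to 54830987 per library in DMSO and from 28505897 to 34062330 after compound 28. Rows that name no gene held 30.4% to 32.8% of all reads in DMSO and 40.4% to 46.9% after compound 28, with reads of no unique position rising from 10.9% to 11.5% in DMSO to 18.4% to 25.4%. The named cell type was checked against markers. Of 11 markers of the named line 7 reached 5 CPM (reads scaled to a common total of gene reads) in every DMSO library, with a summed level of 1290 to 1620 CPM in DMSO and 1860 to 1940 CPM after compound 28, while CAV1, at 0 in 4 of the 6 libraries, had at most 0.117 CPM and KRT18 at most 1.97 CPM in any library. Of 10 leukocyte and myeloid markers 8 reached 5 CPM in every DMSO library. The highest in DMSO were LYZ at 349 to 764 CPM and FLT3 at 419 to 627 CPM. SPI1 was at 266 to 315 CPM, CD33 at 191 to 203 CPM and PTPRC at 84.8 to 137 CPM in DMSO. At the low end were MPO at 5.33 to 9.92 CPM, ITGAM at 4.38 to 7.37 CPM and CD68 at 0.188 to 0.219 CPM. The summed leukocyte markers were 1500 to 2150 CPM in DMSO and 1220 to 1280 CPM after compound 28, and the part of this in the results below was not tested. The values are of bulk RNA, in which fewer cells of a type and less RNA per cell cannot be told apart.

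Structural subunits and assembly factors of complex I moved apart after compound 28. Among the 38 structural subunits 18 rose, 7 fell and 13 did not pass the test, whereas among the 8 assembly factors 2 rose, 4 fell and 2 did not pass. With library sizes only 7 structural subunits were higher and 17 lower, and when mitochondrially encoded or ribosomal protein mRNAs set the scale 0 were higher and 38 or 35 lower. Calls used limma-trend on log2 of the normalized count plus 1, with a Benjamini-Hochberg adjusted p under 0.05 over all genes tested, and by that rule 35.5% of all genes tested were higher and 37.3% lower. The structural share called higher was 47.4% and the share called lower 18.4%; for the assembly factors these were 25% and 50%. The median log2 change was 0.24 over structural subunits, -0.47 over assembly factors and -0.03 over all genes tested. The gap of 0.71 between the 2 classes was the same to 2 decimals under each of the 5 other scalings, which shift all genes alike, and lay between 0.64 and 0.78 when each library was left out in turn.

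The gap can be read within each library without any scaling. For each read on an assembly factor there were 8.99, 9.13 and 9.56 reads on structural subunits in DMSO replicates 1 to 3, and 12.1, 12 and 11.9 after compound 28. The ratio was higher in every compound 28 library than in any DMSO library. NDUFAF8 and NDUFAF3 supply most of the assembly factor reads, and over the other 6 assembly factors the ratio was 20.9 ± 0.85 in DMSO and 44 ± 0.416 after compound 28 (SD, n = 3). NDUFAF8 was called higher (log2 change 0.64) and NDUFAF3 was not called (0.15). The other 6 hold all 4 assembly factors called lower, so leaving these 2 genes out widens the shift. Structural subunits took 0.281% ± 0.0151 of gene reads in DMSO and 0.273% ± 0.00781 after compound 28, with overlapping groups. Assembly factors took 0.0305% ± 0.00252 and 0.0228% ± 0.000529 (SD, n = 3), and every DMSO library lay above every compound 28 library.

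**Figure D1:**
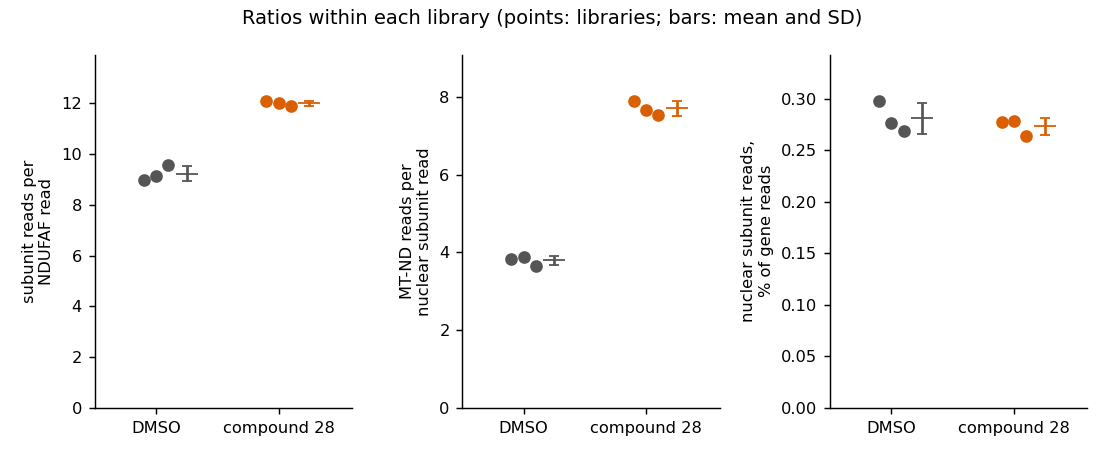
Reads on 38 nuclear subunit rows per NDUFAF read (left), reads on the 7 MT-ND genes per nuclear subunit read (middle) and nuclear subunit reads in percent of gene reads (right). Points are libraries, bars the mean and SD (n = 3 per group); the groups are apart in the left (9.23 and 12) and middle (3.79 and 7.70) panels and overlap in the right panel.

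**Figure D2:**
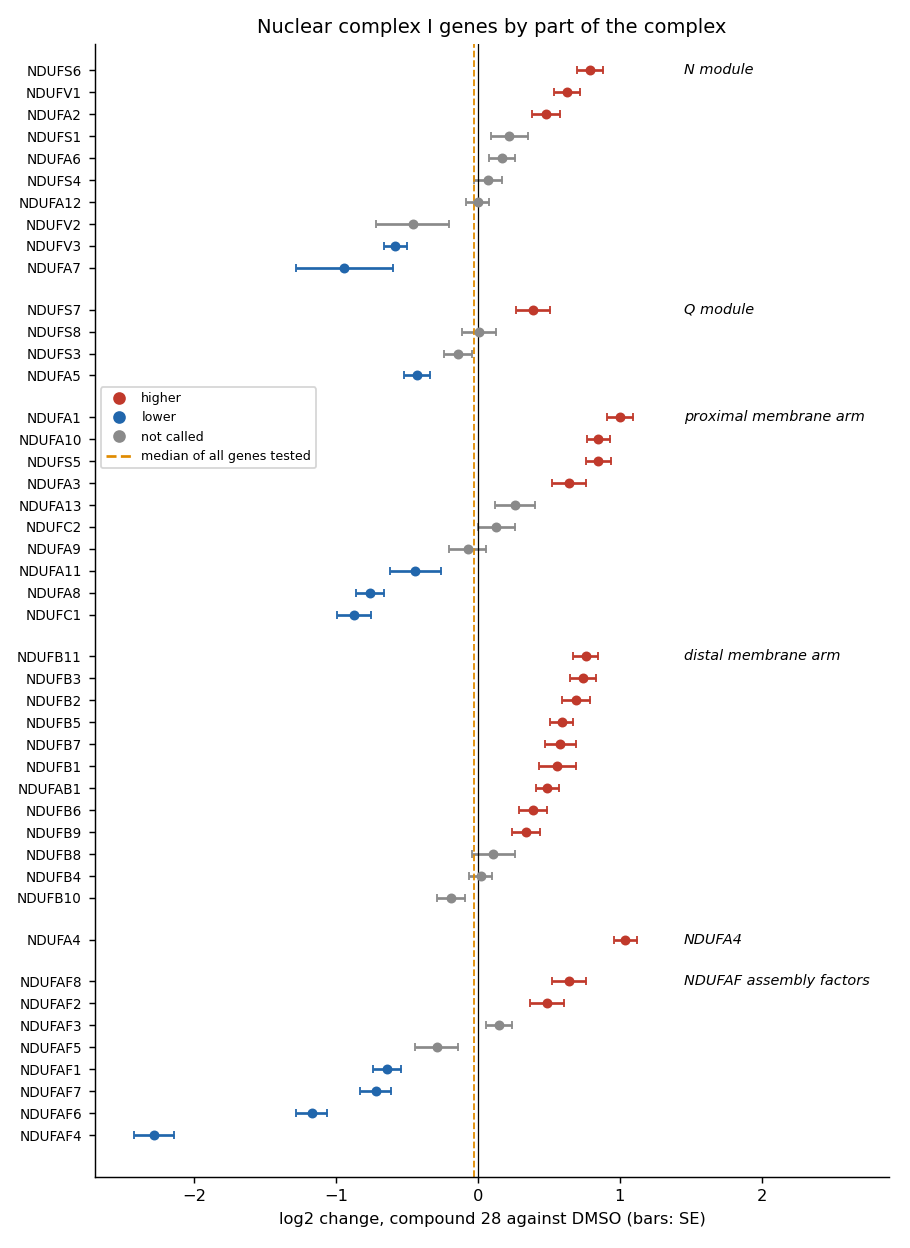
Log2 change of 45 of the 46 genes with its SE, ordered within the parts of complex I, in the authors' normalization; red and blue mark genes called higher and lower and grey those not called. The distal membrane arm has 9 genes called higher and 0 called lower, while the NDUFAF series runs from 0.64 to -2.28; with scaling on mitochondrially encoded mRNAs all of them are below 0.

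Promoters are shown for the largest rise and the largest fall in each class among genes with a RefSeq promoter and at least 100 normalized counts in both groups, so that the DNA around the starts of oppositely moving genes can be set side by side. Each runs from 250 bases before to 50 bases after the RefSeq start on GRCh38.p14, 5′ to 3′ on the gene's strand. NDUFA1 lies at chrX:119871582-119871881 (plus strand), NDUFC1 at chr4:139302502-139302801 (minus), NDUFAF8 at chr17:81239664-81239963 (plus) and NDUFAF4 at chr6:96897842-96898141 (minus). Capitals mark exact matches on either strand to CCGGAAG (ETS-type sites, the type bound by GABPA), GCGCATGCG (NRF1), AAGATGGCG (YY1), GGGCGG (SP1-type) or TATAAA; no marked matches overlap.
NDUFA1: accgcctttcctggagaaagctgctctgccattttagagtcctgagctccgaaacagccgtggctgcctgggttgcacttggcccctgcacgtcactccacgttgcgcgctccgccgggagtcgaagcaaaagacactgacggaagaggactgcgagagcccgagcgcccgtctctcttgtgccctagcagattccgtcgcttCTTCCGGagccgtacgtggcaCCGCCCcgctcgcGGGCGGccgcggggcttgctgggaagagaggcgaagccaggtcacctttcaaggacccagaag
NDUFC1: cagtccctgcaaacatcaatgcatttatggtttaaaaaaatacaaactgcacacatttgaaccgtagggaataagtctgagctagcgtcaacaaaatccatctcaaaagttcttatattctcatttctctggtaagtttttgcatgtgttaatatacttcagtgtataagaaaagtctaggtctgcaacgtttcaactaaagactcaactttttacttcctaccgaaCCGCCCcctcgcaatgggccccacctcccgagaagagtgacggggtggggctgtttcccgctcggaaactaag
NDUFAF8: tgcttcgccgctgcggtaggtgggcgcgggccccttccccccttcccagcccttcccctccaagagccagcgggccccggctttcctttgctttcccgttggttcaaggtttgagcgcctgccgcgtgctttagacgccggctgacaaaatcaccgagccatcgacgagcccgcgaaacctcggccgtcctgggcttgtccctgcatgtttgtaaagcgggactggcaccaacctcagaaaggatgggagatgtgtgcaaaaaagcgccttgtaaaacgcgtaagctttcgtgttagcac
NDUFAF4: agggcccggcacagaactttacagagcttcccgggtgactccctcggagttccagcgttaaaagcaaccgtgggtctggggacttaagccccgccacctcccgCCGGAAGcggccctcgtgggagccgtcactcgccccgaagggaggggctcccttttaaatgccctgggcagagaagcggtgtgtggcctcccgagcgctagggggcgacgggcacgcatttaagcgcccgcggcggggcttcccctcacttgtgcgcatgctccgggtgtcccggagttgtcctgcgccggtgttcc
NDUFA1 has 1 ETS-type and 2 SP1-type matches, NDUFC1 has 1 SP1-type match, NDUFAF4 has 1 ETS-type match 147 bases before the start, and NDUFAF8 has 0 of the 5 motifs. GC content was 64% for NDUFA1, 42.7% for NDUFC1, 60.7% for NDUFAF8 and 67% for NDUFAF4. Promoters were matched for 32 structural subunits and 7 assembly factors. AAGATGGCG was in 5 of 32 structural and 0 of 7 assembly factor promoters, against 1.85% of 27305 promoters in the RefSeq table. GCGCATGCG was in 4 of 32 (NDUFA8, NDUFB4, NDUFS6 and NDUFS7) and 1 of 7 (NDUFAF5), against 2.1%. The ETS-type letters were in 5 of 32 and 1 of 7, against 10.7%, and GGGCGG in 20 of 32 and 2 of 7, against 44.6%. TATAAA was in 3 of 32 and 0 of 7, against 12% of all promoters. A match describes these letters only. Genes that hold the NRF1 letters took different directions: NDUFS6 and NDUFS7 rose, NDUFA8 fell, and NDUFB4 and NDUFAF5 did not pass.

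Among the assembly factors NDUFAF4, which works with NDUFAF3 on early Q-module intermediates, had the largest fall of the 46 genes. It had 798.4, 693.5 and 670.5 normalized counts in DMSO and 141.0, 142.1 and 160.1 after compound 28, a 4.85-fold fall (log2 change -2.28 ± 0.14 SE, adjusted p = 2.9e-07, limma). The groups were far apart, and 7.58% of all genes tested had a lower log2 change. NDUFAF3, its partner, had 2898, 2451 and 2609 normalized counts in DMSO against 2854, 2843 and 3093 after compound 28. These overlapped and the change did not pass (log2 change 0.15, adjusted p = 0.17, limma), and the difference between the pair was not tested. With library sizes only NDUFAF3 passed as lower (-0.31) and with upper-quartile factors as higher (0.34). By GENCODE release 29, 21.7% of NDUFAF3 exon bases are shared with DALRD3 on the other strand.

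NDUFAF6, a protein related to phytoene synthases that is needed for complex I biogenesis, fell 2.25-fold from 820.9, 843.0 and 915.2 to 364.3, 373.6 and 405.7 normalized counts (log2 change -1.17, adjusted p = 5.5e-06, limma). NDUFAF7, an arginine methyltransferase, fell from 723.2 ± 20.2 to 440.1 ± 23.8 (SD, n = 3; log2 change -0.72), and NDUFAF1, a core member of the complex that builds part of the membrane arm, from 1018 ± 81.1 to 651.4 ± 22.5 (-0.64). In each of these 3 genes all DMSO libraries were above all compound 28 libraries. NDUFAF5, which hydroxylates an arginine of NDUFS7, had 398.0 ± 35.4 and 325.8 ± 43.9 normalized counts (SD, n = 3), with groups that did not overlap, and missed the threshold (log2 change -0.29, adjusted p = 0.099, limma). It passed as lower with library sizes only (-0.75, adjusted p = 0.0012, limma) and under mitochondrial (-1.75) or ribosomal protein (-1.40) scaling.

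Against these falls stood NDUFAF8, a small stabiliser of NDUFAF5, with 3294, 2688 and 2293 normalized counts in DMSO and 4277, 4429 and 4097 after compound 28, a 1.56-fold rise (log2 change 0.64, adjusted p = 7.2e-04, limma). NDUFAF2, a paralog of NDUFA12 that holds its place during assembly, rose from 532.1 ± 36.2 to 748.5 ± 80.0 (n = 3, SD; adjusted p = 0.0039 by limma, log2 change 0.49). Neither rise passed with library sizes only (log2 changes 0.19 and 0.04), and both turned to falls under scaling on mitochondrially encoded mRNAs (-0.81 and -0.97) or ribosomal protein mRNAs (-0.47 and -0.62). The falls of NDUFAF1, NDUFAF4, NDUFAF6 and NDUFAF7 held under every scaling and without each library in turn.

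**Figure D3:**
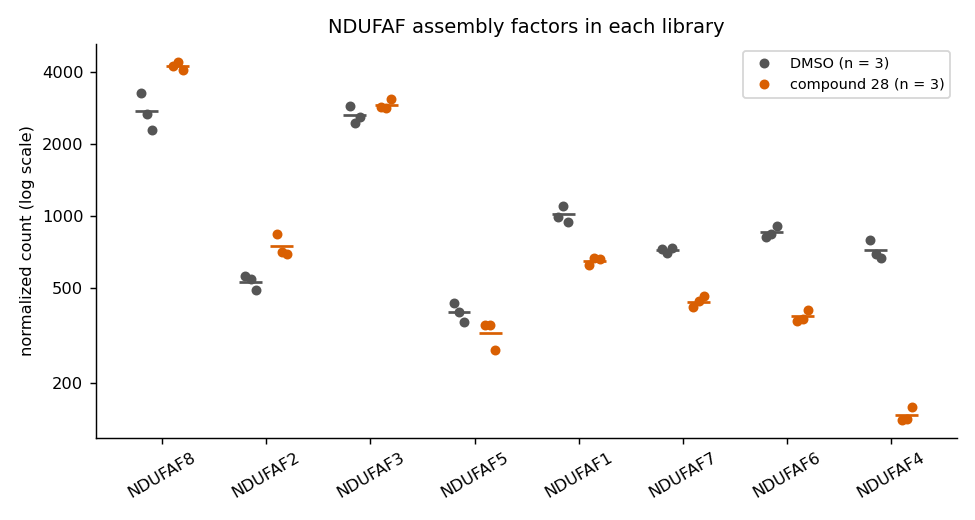
Normalized counts of the 8 NDUFAF genes in each library on a log axis, DMSO in grey and compound 28 in orange, with the mean of 3 libraries as a line. NDUFAF4 drops from a mean of 720.8 to 147.7, while NDUFAF3 overlaps between the groups.

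Of the 4 modules of structural subunits the distal membrane arm had the highest median, and differences between modules were not tested. Beside the module counts, 35.5% of all genes tested were higher and 37.3% lower. Of its 12 nuclear members 9 rose, 0 fell and 3 did not pass, with a median log2 change of 0.52; with library sizes only NDUFB9 (-0.12) and NDUFB6 (-0.06) were below 0 and NDUFB2 (0.24), NDUFB5 (0.13), NDUFB7 (0.13), NDUFB1 (0.10) and NDUFAB1 (0.04) were not called, and under mitochondrial or ribosomal protein scaling all 9 were below 0. NDUFB11, a small membrane subunit, rose from 3273 ± 374 to 5519 ± 130 normalized counts (n = 3, SD; adjusted p = 3.6e-05 by limma, log2 change 0.76), and NDUFAB1, the mitochondrial acyl carrier protein, from 2549 ± 111 to 3582 ± 180 (0.49). The 3 that did not pass were NDUFB8 (log2 change 0.11), NDUFB4 (0.02) and NDUFB10 (-0.19); NDUFB10 passed as lower without compound 28 replicate 3 (-0.27). At an unadjusted p under 0.05 limma had 0 of the 12 lower, and edgeR and DESeq2 called 0 lower. With library sizes only NDUFB10 (-0.65, adjusted p = 9.8e-05) and NDUFB4 (-0.43, adjusted p = 0.00099) were called lower by limma. NDUFB9 lost its call without DMSO replicate 2 (adjusted p = 0.051, limma), compound 28 replicate 1 (0.054) or compound 28 replicate 2 (0.056).

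In the proximal membrane arm 4 were higher, 3 lower and 3 not called of 10. These shares are near the 35.5% higher and 37.3% lower of all genes tested. NDUFA1, a small subunit of the arm, rose from 2151, 1967 and 2176 to 4449, 4131 and 4038 normalized counts (2-fold, log2 change 1.0 ± 0.09 SE, adjusted p = 2.3e-06, limma). NDUFA10 (0.85), NDUFS5 (0.85) and NDUFA3 (0.64) also rose, and these 4 rises were below 0 under mitochondrial and ribosomal protein scaling, while with library sizes only NDUFA3 was not called (0.19). NDUFC1 went the other way, from 1033, 851.4 and 930.8 to 556.7, 483.0 and 494.3 normalized counts (log2 change -0.87 ± 0.12 SE, adjusted p = 6.4e-05, limma), and in GENCODE release 29 it shares 18.5% of exon bases with MGARP on the same strand. NDUFA8, a subunit with paired cysteine motifs imported into the intermembrane space, fell from 1690 ± 35.4 to 998.2 ± 102 (SD, n = 3; log2 change -0.76). NDUFA11 had overlapping groups, and its call (log2 change -0.44, adjusted p = 0.042, limma) was lost without DMSO replicate 1 (adjusted p = 0.15), DMSO replicate 2 (0.12), compound 28 replicate 1 (0.11) or compound 28 replicate 3 (0.15). NDUFA13 (0.26), NDUFC2 (0.13) and NDUFA9 (-0.07) did not pass.

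In the N module 3 rose, 2 fell and 5 did not pass of 10, where 35.5% of all genes tested were higher and 37.3% lower. NDUFS6, a zinc-binding subunit, rose from 2466 ± 236 to 4242 ± 73.9 normalized counts (n = 3, SD; a log2 change of 0.79) and NDUFA2 from 927.5 ± 82.6 to 1293 ± 7.17 (0.48; not called with library sizes only, 0.03), and both were below 0 under mitochondrial and ribosomal protein scaling. NDUFV3, an accessory subunit of the NADH-oxidising tip, fell from 2372 ± 90.9 to 1588 ± 40.3 (n = 3, SD; adjusted p = 1e-04 by limma, log2 change -0.58). NDUFA7 was read at 20.13 to 53.43 normalized counts, and its fall (log2 change -0.94, adjusted p = 0.027, limma) was lost without DMSO replicate 2 (adjusted p = 0.08), DMSO replicate 3 (0.07), compound 28 replicate 2 (0.076) or compound 28 replicate 3 (0.073), and with DESeq2 (0.053). NDUFA6 (0.17), NDUFS4 (0.07) and NDUFA12 (0.00) did not pass, nor did NDUFS1 and NDUFV2. In the Q module NDUFA5, its accessory subunit, fell from 1729 ± 74.9 to 1283 ± 78.7 (SD, n = 3; log2 change -0.43).

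Among the nuclear subunits of the catalytic core described here, the arm that transfers electrons, NDUFV1 and NDUFS7 rose and NDUFS1, NDUFS3, NDUFS8 and NDUFV2 did not pass. NDUFV1, the flavin and NADH subunit, had 7236, 6026 and 6826 normalized counts in DMSO and 10210, 10070 and 10730 after compound 28 (log2 change 0.63, adjusted p = 9.7e-05, limma). The groups did not overlap; NDUFV1 was not called with library sizes only (0.18) and was below 0 under mitochondrial and ribosomal protein scaling (-0.83 and -0.48). NDUFS7, an iron-sulfur subunit, rose with a log2 change of 0.39 (adjusted p = 0.014, limma), a call lost without DMSO replicate 2 (adjusted p = 0.061) or compound 28 replicate 3 (0.057) and turned by library sizes only (-0.06). NDUFS1 (log2 change 0.22), NDUFS3 (-0.14), NDUFS8 (0.01) and NDUFV2 (-0.46) did not pass, although without DMSO replicate 3 NDUFS1 passed as higher (0.37) and NDUFS3 as lower (-0.24). Of the 30 accessory subunits without NDUFA4, 15 rose, 6 fell and 9 did not pass, with a median log2 change of 0.30. The shares over all genes tested were 35.5% higher and 37.3% lower.

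NDUFA4 carries a complex I name but has been reassigned to complex IV, cytochrome c oxidase, and it had the largest rise of the 46 genes. It had 4182, 3873 and 4344 normalized counts in DMSO and 8891, 8377 and 8139 after compound 28 (2.05-fold, log2 change 1.04 ± 0.08 SE, adjusted p = 1.6e-06, limma). The rise also passed with library sizes only (0.58) and was below 0 under mitochondrial (-0.42) and ribosomal protein (-0.08) scaling.

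Per kilobase of transcript, the highest mean levels among the 46 genes in DMSO were those of NDUFS5 (9623 normalized counts per kb), NDUFB9 (8849) and NDUFB7 (6491), with lengths from GENCODE release 29. At the other end, NDUFA7, NDUFV2, NDUFA13, NDUFB8 and NDUFA9 had the lowest normalized counts of the structural subunits in DMSO, from 48.56 to 334.1. In that annotation each of these 5 genes shares exon bases with another gene on the same strand, from 10.6% for NDUFA9 to 33.8% for NDUFB8, and reads on shared bases may be assigned to neither gene. NDUFV2 also has a pseudogene, NDUFV2P1, read at 46.49 ± 4.48 normalized counts in DMSO (SD, n = 3). Of the 8 structural subunits with at least 10% of exon bases so shared, 0 rose, 2 fell and 6 did not pass. Among the other 30, 18 rose, 5 fell and 7 did not pass, where 35.5% of all genes tested were higher and 37.3% lower. At an unadjusted p under 0.05 limma had 0 of the 8 with shared bases higher, as had edgeR and DESeq2 adjusted. With upper-quartile factors NDUFA13 passed as higher (log2 change 0.46). On the opposite strand NDUFA1 shares 44.5% of exon bases with RNF113A, NDUFB11 44.9% with RBM10 and NDUFS7 49.1% with clone-named genes; the kit was stranded, but the strand setting of the counting is not given in the sources used here, so the values of these genes are uncertain.

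Changes differed between ranges of DMSO level, and the part of level in the gap between the classes was not tested. Among protein-coding genes tested with 300 to 1000 normalized counts in DMSO, 57.6% were called lower and 20.9% higher; of the 5 assembly factors in that range 3 were lower and 1 higher, a share near this background, and of the 7 structural subunits there 2 were lower and 3 higher. Between 1000 and 3000 normalized counts 27.5% of protein-coding genes were higher and 50.5% lower, against 7 and 3 of 16 structural subunits. At 3000 or more 46.8% were higher and 30% lower, against 8 and 1 of 11. Under 300 normalized counts 42.5% of protein-coding genes were higher and 27.2% lower, against 0 and 1 of 4 structural subunits. Spearman's rho between the log2 change and the DMSO level per kb was 0.467 across the 46 genes and -0.138 across 12947 protein-coding genes, which are not independent replicates and share the same 6 libraries. With genomic span rho was -0.301 across the 46 genes and 0.0619 across all protein-coding genes. Median span was 13.8 kb for structural subunits, 18.5 kb for assembly factors and 30.9 kb for all protein-coding genes tested.

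The DMSO and compound 28 libraries did not overlap for 27 of 38 structural subunits and 7 of 8 assembly factors, where 75.7% of all genes tested did not overlap. That count is near the background and says nothing particular to complex I. Of the 46 genes, 20 are higher and 10 lower in the authors' deposited table at the same threshold, and 45 of 46 have the call found here. The exception is NDUFA7, called lower here and not called in the authors' table (log2 fold change -0.92).

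**Figure D4:**
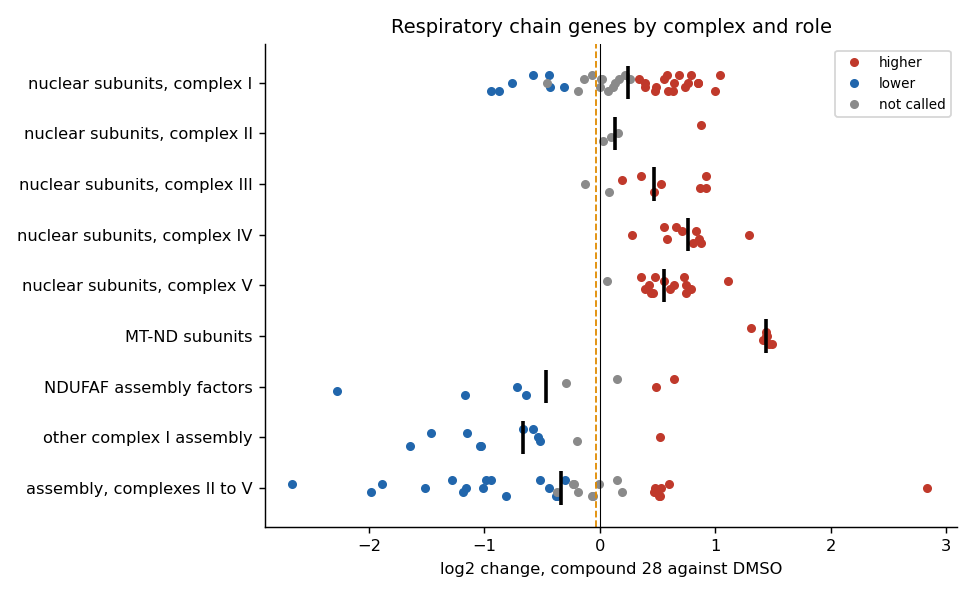
Log2 change of each tested gene in the authors' normalization for nuclear subunits of complexes I to V, MT-ND subunits and 3 sets of assembly factors, colored by call, with the list median as a black bar and the median of all genes tested (-0.03) as a dashed orange line. Medians of nuclear subunits run from 0.13 (complex II) to 0.76 (complex IV) and assembly factor medians from -0.33 to -0.67; under mitochondrial or ribosomal protein scaling the medians of the nuclear subunits of complex I and of complexes II to V together lie below 0.

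Other genes of the respiratory chain were set beside complex I from lists of assembly factors, subunits and regulators. Of all genes tested 35.5% were higher and 37.3% lower. Among protein-coding genes 57.6% were lower at 300 to 1000 normalized counts in DMSO and 50.5% at 1000 to 3000. Of 11 complex I assembly factors outside the NDUFAF series 1 rose, 9 fell and 1 did not pass (median log2 change -0.67), and the median of the NDUFAF series was -0.47. TIMMDC1, the most abundant of these and a membrane anchor of assembly, fell from 3124 to 1964 mean normalized counts (log2 change -0.67), and TMEM70, an assembly factor of ATP synthase and complex I, had the largest fall (-1.65, adjusted p = 4.5e-07, limma). NUBPL, which delivers iron-sulfur clusters to complex I, was the 1 that rose (0.52); without DMSO replicate 1, compound 28 replicate 1 or compound 28 replicate 2 the number higher was 0. ECSIT (-1.15), ACAD9 (-1.03) and TMEM126B (-0.52), partners of NDUFAF1 in membrane arm assembly, fell with it. Of 32 assembly factors of complexes II to V 7 rose, 16 fell and 9 did not pass (median -0.33), a lower share near that of protein-coding genes at such levels. The most abundant, TTC19 of complex III, rose (0.47) and COX20 of complex IV rose most (2.84). PET117, 1 of the 16, had the lowest log2 change (-2.67) at a mean of 42.2 normalized counts in DMSO. It passed the filter on low values only through the DMSO libraries, which fixes its direction.

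Most nuclear subunits of the other complexes were higher in the authors' normalization, where 35.5% of all genes tested were, and their difference from complex I was not tested. Of 38 in complexes II to V 32 rose, 0 fell and 6 did not pass, with a median log2 change of 0.57 against 0.24 for complex I; with library sizes only 14 rose and 7 fell (median 0.12), and 37 fell under mitochondrial and 29 under ribosomal protein scaling. The median less that of all genes was 0.61 for complexes II to V and 0.28 for complex I. Under the 6 scalings these differences were 0.59 to 0.61 and 0.26 to 0.28. They are nearly fixed by construction, since each scaling shifts all genes of a library alike. At an unadjusted p under 0.05 limma had 0 of the 38 lower, edgeR and DESeq2 called 0 lower, and UQCRFS1 of complex III had the lowest log2 change (-0.13). The most abundant members were SDHA of complex II (log2 change 0.03, not called), CYC1 of complex III (0.08, not called), COX4I1 of complex IV (0.81) and ATP5B of complex V (0.64). The largest rises were in SDHC (0.88), UQCRH (0.92), COX7A2 (1.29) and ATP5E (1.11).

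The 7 MT-ND genes, the mitochondrially encoded subunits of the same enzyme, rose in the authors' normalization, with log2 changes from 1.31 for MT-ND3 to 1.49 for MT-ND1. None of the 7 fell by limma, adjusted or not (0), or by edgeR (0) or DESeq2 (0). They took 1.14%, 1.07% and 0.985% of gene reads in DMSO and 2.19%, 2.13% and 1.99% after compound 28. For each read on a nuclear structural subunit there were 3.83, 3.89 and 3.66 MT-ND reads in DMSO and 7.90, 7.66 and 7.54 after compound 28. This ratio within libraries does not depend on scaling, and its groups were apart, whereas scaling on mitochondrially encoded mRNAs removes the MT-ND rise by construction. The kit was one for stranded mRNA, per the labels' protocols, so the ratio is of the RNA that the kit captured.

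Genes that feed or regulate complex I were read beside the 35.5% higher and 37.3% lower of all genes tested. Of 13 tested genes of iron-sulfur cluster assembly 5 rose and 5 fell, a share close to that of all genes in each direction. HSPA9, the most abundant, rose (log2 change 0.37), ISCU, the scaffold, rose most (0.85), and ISCA2, which matures clusters of the type complex I carries, fell most (-2.55). Of 10 tested regulators of respiratory genes 3 rose and 7 fell. YY1 was the most abundant and rose most (0.73), NRF1 rose (0.53), GABPA (-0.63) and its partner GABPB1 (-1.35) fell, and TFB1M, a mitochondrial rRNA methyltransferase, fell most (-1.71). The coactivator PPARGC1A was under the filter and was not tested. The rises among these lists turned to 0 genes higher under mitochondrial or ribosomal protein scaling.

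Because the direction of most subunits depended on scaling, 6 scalings are plotted together. Over all genes tested the median log2 change was -0.03 in the authors' normalization and -0.48 with library sizes only. It was -1.47 when mitochondrially encoded mRNAs set the scale and -1.13 when ribosomal protein mRNAs did. With library sizes only 7 structural subunits were higher and 17 lower, where 23.1% and 50.9% of all genes were, and 0 assembly factors were higher and 6 lower. Upper-quartile factors gave 23 structural subunits higher and 4 lower, beside 41.4% and 31.5% of all genes, and 3 assembly factors higher and 4 lower. Mitochondrial scaling put all 38 structural subunits and all 8 assembly factors lower, beside 9.9% of all genes higher and 76% lower. Ribosomal protein scaling put 35 and 8 lower, beside 12.2% of all genes higher and 67.9% lower. Structural subunits had a median above that of all genes by 0.26 to 0.28, and assembly factors had a median less that of all genes of -0.45 to -0.43. These differences are nearly fixed by construction, since each scaling shifts all genes of a library alike.

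**Figure D5:**
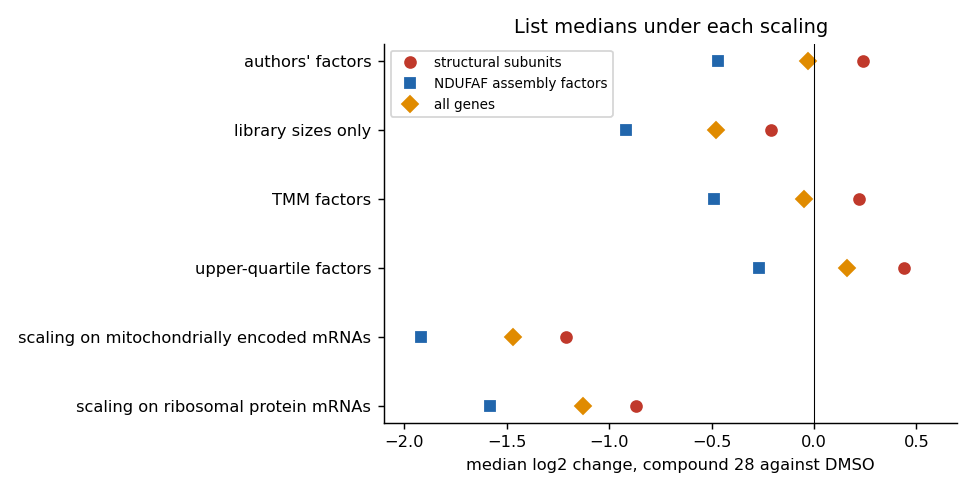
Median log2 change of the 38 structural subunits, the 8 NDUFAF assembly factors and all 18278 genes tested under 6 scalings (horizontal axis, log2). The structural median changes sign, from 0.24 with the authors' factors to -1.21 with scaling on mitochondrially encoded mRNAs. The order of the 3 medians is the same in each row by construction, since each scaling shifts all genes of a library alike.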

How the data were processed

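RNA of 3 DMSO and 3 compound 28 libraries was sequenced; the labels' protocols name a kit for stranded mRNA. The submitters' processing notes list HTSeq, SAMtools, StringTie, HISAT2 and fastp, and the builds GRCh37 and hg19, while versions and the strand setting of counting are not given in the sources used here. Each deposited signal value is, from the values, a read count divided by 1 size factor per library by the authors; 100% of values above 0 were whole reads within 0.01, and the factors equal median-of-ratios factors. The deposited log2 fold changes with errors and the deposited p-values are used where the authors' table is named; the deposited score (test statistic) and mean were not used.

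Rows that name no gene were left out. The filter was filterByExpr of edgeR 4.0.16 on recovered reads, the test limma 3.58.1 (R 4.3.3) with trend on log2(normalized count + 1). Fold changes are on that scale, which understates the change of low genes. The test was tried on simulated data. Alternatives were edgeR, DESeq2 1.42.0, scalings, pseudocounts, filters, a replicate block and leaving out libraries. Same-numbered replicates are not paired by the labels. GENCODE release 29 (GRCh38) gave lengths and overlaps, with 95.6% of rows matched by symbol. The members, the gene lists and the naming rule were chosen with earlier results of these data known. The rule names all NDUFAF genes, core subunits, NDUFA4, uncalled subunits, the 5 largest and 5 smallest structural changes, the 3 highest levels per length and, per list, the most abundant gene and the largest called rise and fall. NDUFB1, NDUFB2, NDUFB5, NDUFB6, NDUFB11, NDUFAB1, NDUFA2, NDUFA3, NDUFA5, ECSIT, ACAD9, TMEM126B, NRF1, GABPA, GABPB1, UQCRFS1, NDUFV2P1, NDUFA5P11, NDUFV2-AS1 and NDUFB2-AS1 were named after their values were seen. Motif letters were shortened by 1 for NRF1 and YY1 after a first count, and promoters on chromosome 8 were not printed. Some genes that the rule names are not reported here.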

Additional observations from a re-analysis of the deposited data

Results flagged for a closer look

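Among rows named NDUF that fall outside the choice of members, 6 were picked because their signal was above that in DMSO. That choice fixes their direction, so no test is given for these 6. NDUFA4L2, a paralog of NDUFA4, had 629.6 ± 117 normalized counts in DMSO and 1590 ± 277 after compound 28 (n = 3, SD, log2 change 1.34). NDUFA6-AS1, by its symbol antisense to NDUFA6, went from 98.37 ± 20.4 to 242.9 ± 55.4 (SD, n = 3, log2 change 1.29), while NDUFA6 was not called. Without a known strand setting, reads on bases that such partners share cannot be told apart. By GENCODE release 29 NDUFA6 shares 1.8% of exon bases with NDUFA6-DT on the other strand. Other such rows were lower: NDUFV2-AS1 went from 54.1 ± 3.16 to 31.33 ± 10.7 normalized counts (n = 3, SD, adjusted p = 0.04 by limma). NDUFB2-AS1 went from 17.65 ± 2.39 to 7.625 ± 1.27 (n = 3, SD). It passed the filter on low values only through the DMSO libraries, which fixes its direction, so no test is given for it.

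Of 29 NDUF pseudogene rows 6 passed the filter on low values. The 4 described here passed it only through the compound 28 libraries, which fixes their direction, so no test is given, and NDUFV2P1 and NDUFA5P11 were not called. NDUFB4P8 went from 2.138 ± 1.2 to 178.9 ± 29.8 normalized counts (n = 3, SD), and NDUFAF4P4 from 3.342 ± 2.15 to 27.24 ± 2.11. NDUFB10P1 (31.95 ± 4.8 after compound 28, 68 reads) and NDUFS6P1 (16.56 ± 1.99, 35 reads; SD, n = 3) had 0 reads in DMSO, so they were at least 47.2-fold and 24.5-fold higher when 3 reads in the DMSO group as a whole are taken as the limit, which covers counting error only. In all, the pseudogene rows held 152 to 216 reads per DMSO library and 239 to 342 per compound 28 library.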

How the results depend on the processing

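The gap between the class medians kept its sign under every alternative run (0.64 to 0.78), though the scalings among these leave the gap nearly unchanged by construction. The assembly factor counts of 2 higher and 4 lower were the same without each library. The structural count was 16 to 19 higher and 5 to 7 lower when libraries were left out, and 18 and 5 without the 8 subunits that share exon bases, an alternative chosen after seeing the data; edgeR gave 18 and 7, DESeq2 18 and 6. With the replicate block the counts were 18 and 7. Correlations for same-numbered libraries were -0.0236, 0.0389 and 0.0665. These were computed otherwise than the correlations of 0.829 to 0.848 between libraries of different groups. They cannot show whether same-numbered samples share a culture or batch. The number of other complex I assembly factors higher ranged from 0 to 1 over the leave-outs.

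Scaling moved the counts. With upper-quartile factors 4 structural subunits were lower, and among genes of at least 5 CPM 3624 genes were higher in all, with fewer genes tested. With library sizes only 7 structural subunits were higher and 17 lower, with 0 NDUFAF and 0 other complex I assembly factors, 14 (7 lower) subunits and 1 assembly factor of complexes II to V, 2 (8 lower) iron-sulfur genes, 1 regulator and 4218 of all genes higher. Under mitochondrial mRNA scaling 0 structural, 0 NDUFAF, 0 other complex I assembly, 0 complex II to V subunit, 0 iron-sulfur and 0 regulator genes were higher, with 1 assembly factor of complexes II to V and 1810 of all genes higher, and 38, 8, 37, 31 (assembly factors of complexes II to V), 13 (iron-sulfur) and 13885 (all genes) lower. Ribosomal protein scaling gave the same 0 and 1 with 2236 higher, and 35, 8, 29, 31, 13 and 12417 lower. These scalings shift all genes by 1 amount per library, which by construction moves the counts.

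A log2 change is listed as turned only where the gene was called in either setting, so a change of sign without a call is left out. Log2 changes that turned with library sizes only were NDUFS8 (-0.44), NDUFB4 (-0.43), NDUFS4 (-0.38), NDUFC2 (-0.33), NDUFAF3 (-0.31), NDUFA6 (-0.29), NDUFB9 (-0.12), NDUFB6 (-0.06), NDUFS7 (-0.06). Those turned by mitochondrial mRNA scaling were NDUFS8 (-1.45), NDUFB4 (-1.43), NDUFS4 (-1.38), NDUFB8 (-1.34), NDUFC2 (-1.33), NDUFAF3 (-1.31), NDUFA6 (-1.29), NDUFS1 (-1.24), NDUFA13 (-1.19), NDUFB9 (-1.12), NDUFS7 (-1.06), NDUFB6 (-1.06), NDUFA2 (-0.97), NDUFAB1 (-0.97), NDUFAF2 (-0.97), NDUFB1 (-0.90), NDUFB5 (-0.87), NDUFB7 (-0.87), NDUFV1 (-0.83), NDUFA3 (-0.82), NDUFAF8 (-0.81), NDUFB2 (-0.76), NDUFB3 (-0.72), NDUFB11 (-0.70), NDUFS6 (-0.67), NDUFS5 (-0.61), NDUFA10 (-0.61), NDUFA1 (-0.45), NDUFA4 (-0.42). Those turned by ribosomal protein scaling were NDUFS8 (-1.10), NDUFB4 (-1.09), NDUFS4 (-1.04), NDUFB8 (-1.0), NDUFC2 (-0.99), NDUFAF3 (-0.97), NDUFA6 (-0.95), NDUFS1 (-0.89), NDUFA13 (-0.84), NDUFB9 (-0.78), NDUFS7 (-0.72), NDUFB6 (-0.72), NDUFA2 (-0.63), NDUFAB1 (-0.62), NDUFAF2 (-0.62), NDUFB1 (-0.55), NDUFB5 (-0.53), NDUFB7 (-0.53), NDUFV1 (-0.48), NDUFA3 (-0.47), NDUFAF8 (-0.47), NDUFB2 (-0.42), NDUFB3 (-0.37), NDUFB11 (-0.35), NDUFS6 (-0.33), NDUFA10 (-0.27), NDUFS5 (-0.26), NDUFA1 (-0.11), NDUFA4 (-0.08).

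Upper-quartile factors ended the calls of NDUFA11 (-0.25) and NDUFA7 (-0.75), and no filter that of NDUFA11 (adjusted p = 0.05, limma). Counts near 50 normalized reads limit NDUFA7 and NDUFV2, whose SEs of 0.34 and 0.26 were the largest of the 46 genes.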
